A study of Mus musculus with 8 samples.

Results

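Fibronectin, the tenascins and the matricellular proteins are represented here by 6 genes, *Fn1* (fibronectin), *Tnc* (tenascin-C), *Tnxb* (tenascin-X), *Postn* (periostin), *Sparc* (SPARC, also called osteonectin) and *Spp1* (osteopontin). They were chosen by name and read from a count table of 54532 entries, in which each stands on its own row. All 6 were among the 14150 genes that passed the filter on low counts. RNA sequencing had been performed on primary lung fibroblasts (pFBs) of female C57/black mice, in 4 wild type (WT) and 4 homozygous (HOMO) libraries, which carry the labels WT1–WT4 and HOMO1–HOMO4. HOMO mice carry a CRISPR/Cas9 knock-in that expresses human IGFBP5, a secreted binding protein of insulin-like growth factors, in all tissues and not in fibroblasts alone. Both genotypes were cultured alike and left untreated, and the ages and the number of mice are not given in the sources used here. The sample labels do not tie each library to a mouse, so the p-values below measure the spread between these libraries, part of which may be technical.

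Fibronectin is a large adhesive glycoprotein that cells assemble into fibrils through integrins, and the fibrils then serve as a scaffold for other matrix proteins. Matricellular proteins are secreted into the same matrix but act mainly as modulators of cell adhesion and signaling rather than as structural elements. Tenascin-C appears in tissue repair, tenascin-X associates with collagen in loose connective tissue, periostin and SPARC bind collagen and affect its assembly, and osteopontin is a ligand of integrins and CD44 that macrophages also produce. In the lung, fibroblasts are a main source of several of these proteins during repair and fibrosis.

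*Tnc* was the one gene of the 6 that passed the test, with a mean level in WT 2.21 times that in HOMO. *Tnxb* was also lower in every HOMO library than in any WT library, but missed the threshold. *Spp1* had the largest difference in means, 8.19-fold, and its genotypes overlapped because both were divided internally. *Fn1*, *Sparc* and *Postn* overlapped between genotypes, and for each of them the WT libraries lay further apart than the genotype means.

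Promoter sequences are shown for the 4 genes on which these results turn: *Tnc* and *Tnxb*, which had the most similar profiles among the 6 over the libraries, *Spp1*, which had the largest fold, and *Postn*, which had the widest spread. They are RefSeq sequences on GRCm38.p6 that run from 250 bases before to 50 bases after a transcript start, and 5 of the 6 genes were matched in that table. Capitals mark matches to 4 motifs searched on both strands, the TATA box (TATAAA), the AP-1 site (TGANTCA), the CCAAT box (CCAAT) and the GC box (GGGCGG). The *Tnc* promoter is at chr4:64046966-64047265 on the minus strand, the *Tnxb* promoter at chr17:34670285-34670584, the *Spp1* promoter at chr5:104434861-104435160 and the *Postn* promoter at chr3:54360857-54361156, these 3 on the plus strand.
Tnc: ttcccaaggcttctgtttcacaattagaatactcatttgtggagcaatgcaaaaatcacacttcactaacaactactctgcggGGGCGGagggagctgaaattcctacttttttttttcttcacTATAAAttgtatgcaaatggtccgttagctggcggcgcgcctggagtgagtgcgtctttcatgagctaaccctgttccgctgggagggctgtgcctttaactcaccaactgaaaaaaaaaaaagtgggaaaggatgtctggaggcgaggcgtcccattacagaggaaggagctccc
Tnxb: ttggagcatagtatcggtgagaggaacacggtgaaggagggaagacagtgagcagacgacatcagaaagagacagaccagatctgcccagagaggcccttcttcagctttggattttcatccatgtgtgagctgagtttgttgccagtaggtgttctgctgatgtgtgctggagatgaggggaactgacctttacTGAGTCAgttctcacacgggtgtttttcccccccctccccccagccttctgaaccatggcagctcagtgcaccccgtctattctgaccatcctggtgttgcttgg
Spp1: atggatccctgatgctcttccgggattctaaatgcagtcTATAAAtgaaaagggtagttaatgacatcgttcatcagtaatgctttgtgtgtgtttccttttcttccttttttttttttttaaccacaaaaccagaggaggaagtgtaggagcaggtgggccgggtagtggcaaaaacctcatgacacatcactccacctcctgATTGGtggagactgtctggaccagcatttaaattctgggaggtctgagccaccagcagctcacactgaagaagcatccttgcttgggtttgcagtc
Postn: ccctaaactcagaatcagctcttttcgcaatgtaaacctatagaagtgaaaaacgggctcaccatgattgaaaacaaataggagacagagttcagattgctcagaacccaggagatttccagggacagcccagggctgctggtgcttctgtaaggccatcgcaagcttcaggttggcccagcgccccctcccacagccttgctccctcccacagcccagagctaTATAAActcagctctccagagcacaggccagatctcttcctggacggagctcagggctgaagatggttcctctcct
Counted from the transcript start, *Postn* held TATAAA at −26, *Tnc* held it at −126 with a GC box at −167, and *Spp1* held it at −211 with a CCAAT box on the reverse strand at −46. *Tnxb* held an AP-1 match at −55. Among 32851 promoters of the same length, 13.6% held TATAAA, 7.81% TGANTCA, 37.4% CCAAT and 35.7% GGGCGG. No motif was shared by *Tnc* and *Tnxb*.

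The authors deposited unnormalized read counts per gene, between 17236521 and 29028769 per WT library and between 19009027 and 31987790 per HOMO library. Levels are given as CPM (read counts relative to library size, scaled with edgeR's TMM factors), on which 3 counts amount to 0.116 to 0.172 CPM in WT and 0.0908 to 0.152 CPM in HOMO, a floor for counting error only. The libraries were unevenly related. The biological coefficient of variation was 7.65% between WT1 and WT2, 4.71% between HOMO1 and HOMO2 and 5.07% between HOMO3 and HOMO4, but 30.0 to 56.4% for every other pair of one genotype, so that the 8 libraries behaved as about 5 separate units. Mouse *Igfbp5* had 7130 counts in WT3 and 112 to 225 in the other WT libraries, against 24 to 57 in HOMO, and the human transgene was not analysed here. All 9 fibroblast markers were tested and summed to 12937 to 16618 CPM in WT and 14002 to 24381 CPM in HOMO, and 2 of them were called as lower in HOMO, *Pdgfrb* (log2 fold change −0.97) and *Vim* (−0.65). Epithelial marker sums were low but higher in HOMO, at 1.34 to 13.6 CPM against at most 0.54 CPM in WT. Of 5 markers 1 was tested, *Cdh1*, and it was called (2.77). *Scgb1a1* had 3, 110, 130 and 1 counts in HOMO1 to HOMO4, *Sftpc* 1, 48, 99 and 3, and *Epcam* 45 in HOMO4 alone. Mesothelial markers summed to 52.3 to 161 CPM in WT and 93.9 to 134 CPM in HOMO. Of 6 tested, *Wt1* was called as higher (3.36). *Krt19* (−3.06), *Msln* (−0.52), *Upk3b* (0.09), *Lrrn4* (0.22) and *Krt18* (0.66) were not called. Endothelial markers summed to at most 8.01 CPM in any library and none was called. The part of these cells in the results below was not tested.

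Genes were compared with edgeR's two-sided quasi-likelihood F test, and differentially expressed genes (DEGs) were those past 0.6 in absolute log2 fold change with an adjusted p below 0.05. Of the 6 genes 1 was a DEG, where 12.1% of all tested genes were called and 6.18% were called as lower in HOMO. An unadjusted p under 0.05 was reached by 3 of the 6 (*Tnc*, *Tnxb* and *Spp1*) and by 32.3% of tested genes. Genotypes did not overlap for 2 of the 6 (*Tnc* and *Tnxb*) and for 27.3% of tested genes. All 6 log2 fold changes were negative, with a median of −0.71, against −0.04 over all tested genes. With 6 genes the shares called, with a low p or without overlap are close to the background and are given as a description. The share of negative values over all tested genes was not counted.

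**Figure D1:**
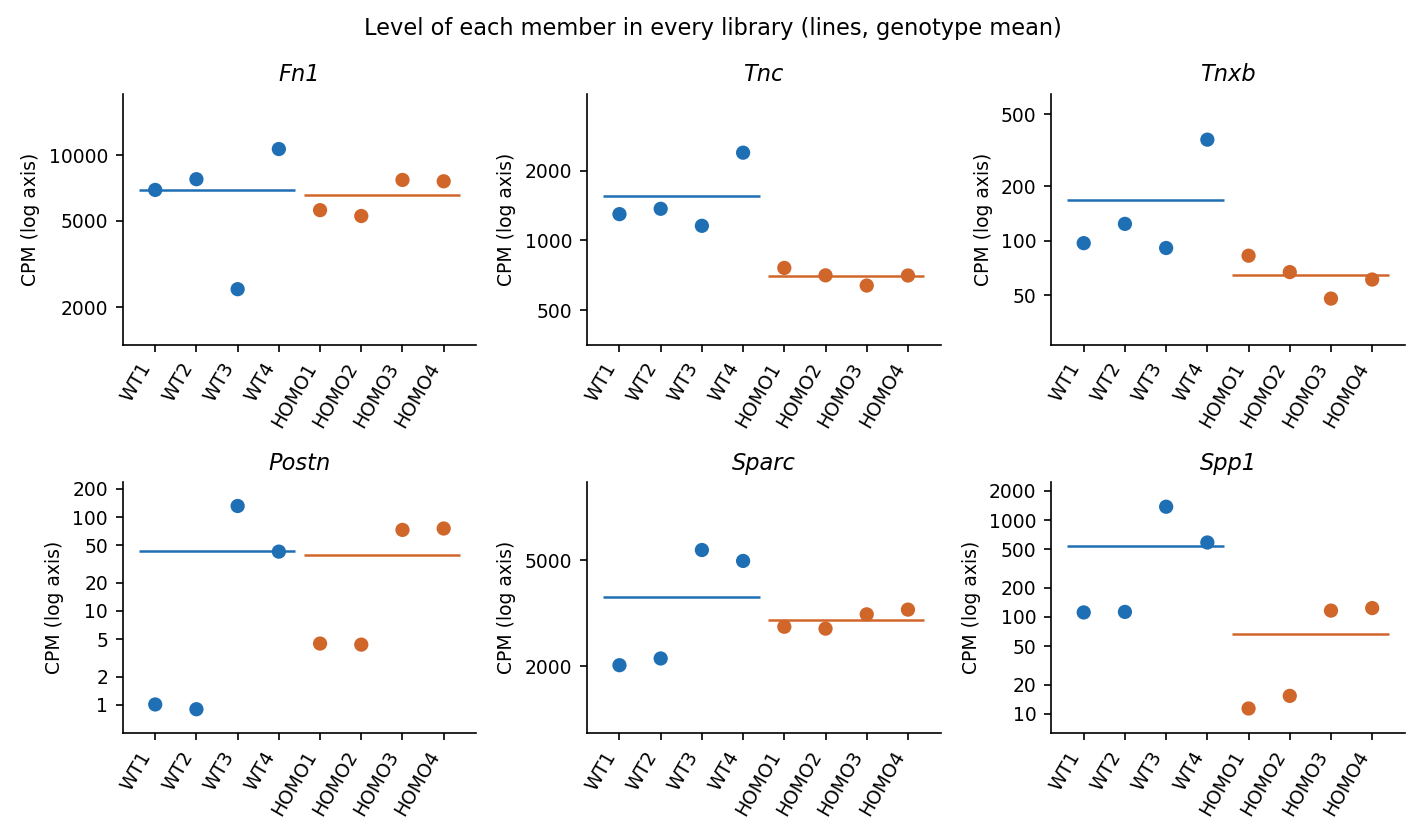
Level of each of the 6 genes in every library, in CPM on a log axis that differs between panels, with points for libraries (blue WT, orange HOMO) and lines for genotype means. HOMO lies below WT in all libraries for *Tnc* and *Tnxb*, whereas *Spp1* and *Postn* divide each genotype into a low and a high pair.

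To compare the genes with each other, CPM was divided by the length of each gene's merged exons in kb. *Sparc* was the most abundant transcript per kb, at a mean of 964 CPM per kb in WT and 791 in HOMO, followed by *Fn1* at 594 and 559. These neighbours were not ordered alike everywhere, since *Fn1* was above *Sparc* in WT1 and WT2 and below it in the other 6 libraries. *Spp1* followed in WT at 332 CPM per kb and *Tnc* at 200, but in HOMO *Tnc* stood at 90.4 and *Spp1* at 40.5. In single libraries *Tnc* was above *Spp1* in all but WT3 and WT4, so that the order of this pair in the WT means rests on these 2 libraries. *Tnxb* (13.8 and 5.30 CPM per kb) and *Postn* (5.05 and 4.52) were the least abundant, and *Postn* was above *Tnxb* in WT3, HOMO3 and HOMO4 only.

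The summed level of the 6 genes ranged from 1287 to 2925 CPM per kb, highest in WT3 and WT4, and its composition differed between libraries. Of the summed CPM per kb of the 6 genes, *Fn1* made up 31.2 to 44.7% in every library except WT3, where it made up 7.81%. In WT3 *Spp1* made up 31.4%, its highest share, and *Sparc* 54.3%, within the 38.1 to 56.8% that *Sparc* made up in the other libraries. *Spp1* contributed 12.2% in WT4, 4.62 to 4.94% in WT1 and WT2, 4.28 to 4.44% in HOMO3 and HOMO4, and at most 0.723% in HOMO1 and HOMO2. Without division by length, the 6 genes together summed to between 8819 CPM (HOMO2) and 19031.5 CPM (WT4).

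**Figure D2:**
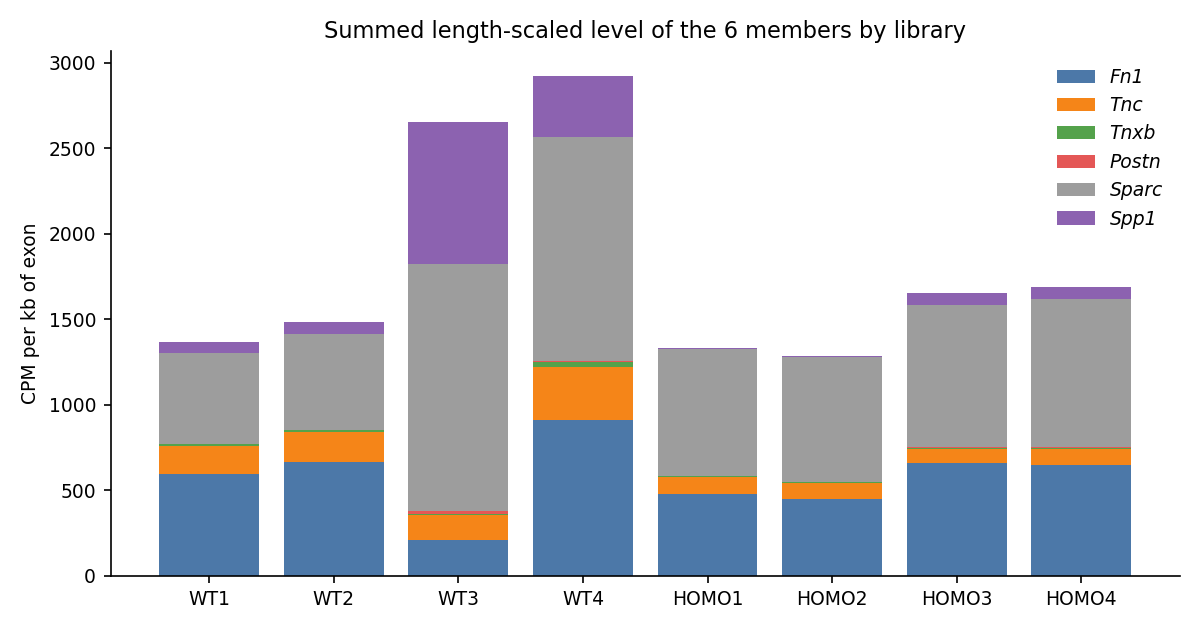
Stacked bars of the levels of the 6 genes per kb of exon (CPM per kb, linear axis from 0) in each of the 8 libraries. *Sparc* and *Fn1* are the 2 largest parts of each bar except in WT3, where *Sparc* and *Spp1* are, and *Postn* and *Tnxb* are barely visible.

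*Fn1* (ENSMUSG00000026193.15, chromosome 1, 71585520 to 71653200, minus strand, 11.685 kb of exon in 45 blocks) had the fourth highest mean CPM of all tested genes. It measured 6925, 7758, 2422 and 10676.5 CPM in WT1 to WT4 and 5590, 5255, 7698 and 7589 CPM in HOMO1 to HOMO4. All 4 HOMO libraries fell inside the WT range, whose lowest (WT3) and highest (WT4) libraries differed 4.41-fold. Means were 6945 ± 3418 CPM in WT and 6533 ± 1290 CPM in HOMO (SD, n = 4 each), and the log2 fold change was −0.09 with an SE of 0.40 (edgeR adjusted p = 0.907). The difference was therefore not detectable against this spread. Without WT4 the log2 fold change was 0.20, without HOMO2 0.01 and without WT3 −0.37, none of them called.

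*Tnc* (ENSMUSG00000028364.15, chromosome 4, 63959785 to 64047015, minus strand, 7.772 kb in 27 blocks) encodes a hexameric glycoprotein that is scarce in most resting adult tissue. It measured 1297, 1368, 1155 and 2388 CPM in WT1 to WT4, and 760, 706, 638 and 705 CPM in HOMO1 to HOMO4. The genotypes did not overlap, WT4 stood above the other WT libraries, and the HOMO libraries were close to one another, with a highest-to-lowest ratio of 1.19. Mean levels were 1552 ± 564 CPM in WT and 703 ± 49.97 CPM in HOMO (SD, n = 4 each). *Tnc* fell in HOMO (log2 fold change −1.14, SE 0.24, edgeR adjusted p = 0.0211). In WT4 the tested genes of chromosome 4 stood a median of 0.34 above the mean of the other WT libraries (log2 scale, relative to all tested genes), and without WT4 the *Tnc* log2 fold change was −0.86 and still called (adjusted p = 0.0106). The adjusted p was 0.0589 to 0.0750 when any HOMO library was left out, and 0.373 when each close pair of libraries was summed into 1 unit, in which design no gene at all was called.

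*Tnxb* (ENSMUSG00000033327.16, chromosome 17, 34670535 to 34719815, plus strand, 12.209 kb in 41 blocks) measured 97.1, 124, 91.3 and 363 CPM in WT1 to WT4 and 82.8, 67.2, 47.9 and 61.1 CPM in HOMO1 to HOMO4. The highest HOMO library lay just below the lowest WT library, and WT4 alone was far above the rest. Means of 169 ± 130 CPM in WT and 64.8 ± 14.5 CPM in HOMO (SD, n = 4 each) gave a log2 fold change of −1.38 (SE 0.45, edgeR adjusted p = 0.0757), which did not pass. Leaving out WT4 reduced the log2 fold change to −0.69, whereas leaving out WT3 gave −1.59 and a call (adjusted p = 0.0453). DESeq2 also called it, with a log2 fold change of −1.39 (adjusted p = 0.0198).

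The other members of the tenascin family were at the limit of counting. *Tnn* (tenascin-N) had 33 counts in WT3 and 1 to 10 in the other libraries, and *Tnr* (tenascin-R) had at most 7. Neither entered the fit across genes, and exact two-sided permutation tests on CPM gave p = 1.00 for *Tnn* and p = 0.8 for *Tnr*, where the smallest p the design allows is 0.0286. Tenascin transcripts in these cells were thus almost wholly *Tnc* and *Tnxb*.

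*Sparc* (ENSMUSG00000018593.13, chromosome 11, 55394500 to 55423183, minus strand, 3.788 kb in 12 blocks) measured 2020 and 2141 CPM in WT1 and WT2 but 5466 and 4974 CPM in WT3 and WT4. In HOMO1 to HOMO4 it measured 2816, 2770, 3135 and 3265 CPM, all between the 2 WT levels. Means were 3650.1 ± 1825 CPM in WT and 2997 ± 242 CPM in HOMO (SD, n = 4 each), with a log2 fold change of −0.28 (SE 0.35, edgeR adjusted p = 0.609). The sign depended on WT3 and WT4, without which the value was 0.53, and on the tool, since limma-voom with sample weights gave 0.51 (adjusted p = 0.0128). Proliferation markers divided the WT libraries along the same line in the opposite direction, summing to 929.8 and 834 CPM in WT1 and WT2 and to 129 and 53.8 CPM in WT3 and WT4. In HOMO they summed to 139 and 129 CPM in HOMO1 and HOMO2 and to 692 and 638 CPM in HOMO3 and HOMO4, where *Sparc* was 1.15 times that of the other pair. Their part in the *Sparc* values was not tested.

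*Postn* (ENSMUSG00000027750.16, chromosome 3, 54361109 to 54391037, plus strand, 8.702 kb in 22 blocks) measured 1.01, 0.901, 131 and 42.8 CPM in WT1 to WT4 and 4.50, 4.39, 72.9 and 75.4 CPM in HOMO1 to HOMO4. Each genotype thus held a low pair and a high pair, with a highest-to-lowest ratio of 145 in WT and 17.2 in HOMO. In WT1 and WT2 these levels rested on 18 and 21 reads. The means of 43.9 ± 61.3 CPM in WT and 39.3 ± 40.3 CPM in HOMO (SD, n = 4 each) gave a log2 fold change of −0.16 (SE 1.49, edgeR adjusted p = 0.954). limma-voom called *Postn* as higher in HOMO (4.72, adjusted p = 0.0398). The sign also turned without WT3 (1.38), where tested genes of chromosome 3 stood a median of 0.35 above the mean of the other WT libraries in WT3 (log2 scale, relative to all tested genes), and relative to the chromosome median the value was 0.07. Leaving out WT3 and WT4 together gave 5.35, so these libraries do not fix a direction. Within HOMO, the mean of HOMO3 and HOMO4 was 16.7 times that of HOMO1 and HOMO2, which share the genotype label.

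Markers of smooth muscle cells and pericytes, cells that a lung fibroblast culture can contain, had their highest sums in WT3, HOMO3 and HOMO4. All 6 were tested, and their summed level, most of it *Acta2* (smooth muscle actin) in every library, was 774 to 2707 CPM in WT and 199 to 1453 CPM in HOMO. *Myh11*, the smooth muscle myosin heavy chain, had 43, 45, 940 and 641 counts in WT and 9, 17, 316 and 344 counts in HOMO. The pericyte marker *Rgs5* had another pattern, with 59, 90, 12 and 932 counts in WT and 0 to 13 in HOMO, and was the one marker called (log2 fold change −5.20, edgeR adjusted p = 0.0486). *Cspg4* had 16 to 44 counts in all libraries. The match of the sum with *Postn* was partial, since HOMO1 and HOMO2 had lower marker sums than WT1 and WT2 and higher *Postn*. Single markers differed in this. *Des* was higher in HOMO1 and HOMO2 (4.10 and 4.36 CPM) than in WT1 and WT2 (0.844 and 0.558 CPM), as *Postn* was. *Cnn1* was lower, at 3.79 and 2.81 CPM in HOMO1 and HOMO2 against 25.4 and 22.7 CPM in WT1 and WT2. The part of such cells in the *Postn* values was not tested, and in bulk RNA fewer cells of a type and less RNA per cell cannot be told apart.

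*Spp1* (ENSMUSG00000029304.14, chromosome 5, 104435118 to 104441050, plus strand, 1.648 kb in 8 blocks) measured 111, 113, 1374 and 587 CPM in WT1 to WT4 and 11.4, 15.3, 116 and 124 CPM in HOMO1 to HOMO4. The ranges met, because WT1 and WT2 lay just below HOMO3 and HOMO4, while WT3 and WT4 were above and HOMO1 and HOMO2 below all others. Means were 546.5 ± 596 CPM in WT and 66.7 ± 61.7 CPM in HOMO (SD, n = 4 each), for a log2 fold change of −3.04 (SE 1.09, edgeR adjusted p = 0.0960). Despite its size the difference missed the threshold, as the HOMO pairs alone differed 8.99-fold and the WT pairs 8.75-fold. DESeq2 called it (log2 fold change −3.03, adjusted p = 0.0221), whereas limma-voom gave −1.05 and no call (adjusted p = 0.218). Without WT3 the log2 fold change was −2.03, and without WT3 and WT4 it was −0.75.

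The summed level of macrophage markers followed that of *Spp1*. All 7 were tested and none was called, and their summed level was 131, 159, 1957 and 1144 CPM in WT1 to WT4 and 57.9, 61.5, 167 and 190 CPM in HOMO1 to HOMO4, which places the 8 libraries in the same order as *Spp1* does. *Lyz2* (lysozyme), the largest part of the sum in WT3 and WT4, had 1558, 2629, 29741 and 23569 counts in WT and 325, 426, 1698 and 2118 counts in HOMO, and none of the 7 markers was at 0. *Adgre1* (F4/80) had 64 to 1405 counts in WT and 4 to 108 in HOMO, whereas *Cd14* did not follow the others, with 333 to 932 counts in WT and 569 to 1247 in HOMO. The part of macrophage RNA in the *Spp1* difference was not tested, and the order rests on the 5 separate units. Bone and cartilage are other sources of osteopontin and SPARC. Of their 6 markers 2 were tested, *Bglap* (osteocalcin) had 1 count in all, and the sum was 25.4 to 67.8 CPM in WT and 52.0 to 69.8 CPM in HOMO.

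**Figure D3:**
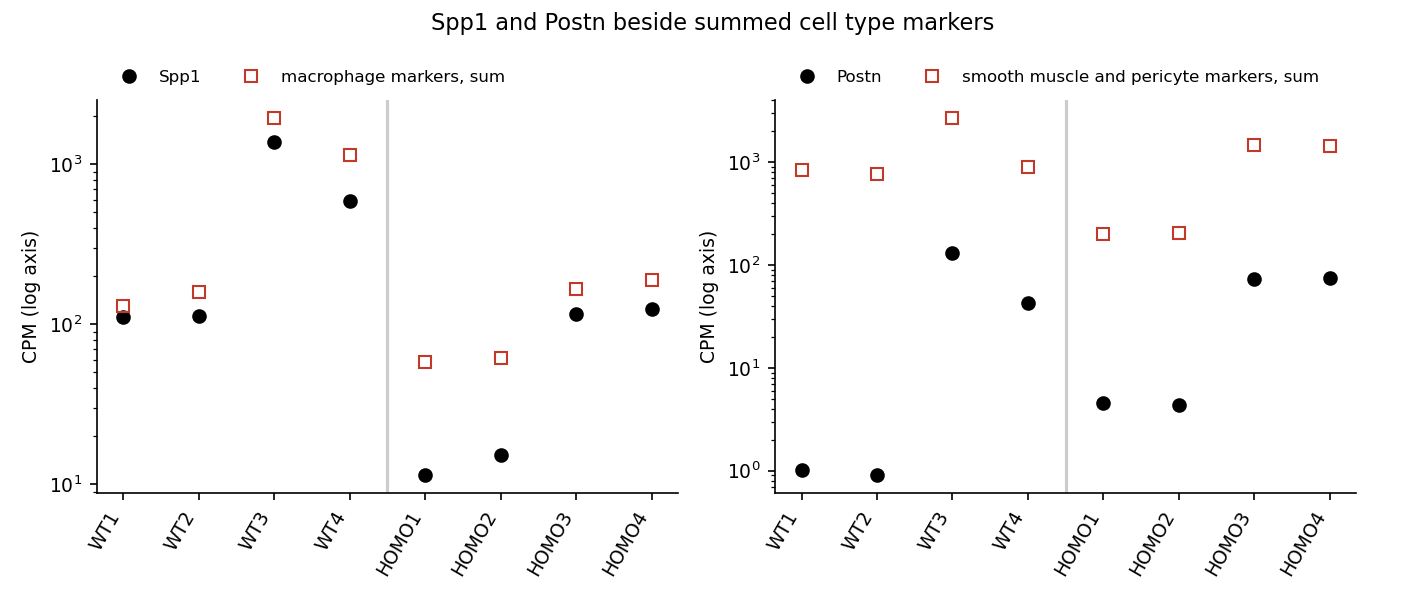
Levels of *Spp1* and *Postn* and summed marker levels of other cell types by library, in CPM on a log axis. Macrophage markers and *Spp1* are both highest in WT3 and WT4 and lowest in HOMO1 and HOMO2.

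All 6 genes varied more between WT libraries than the median tested gene did. The SD of log2 CPM was 0.93 for *Fn1*, 0.47 for *Tnc*, 0.93 for *Tnxb*, 0.77 for *Sparc*, 1.804 for *Spp1* and 3.62 for *Postn*, against a median of 0.44 over all tested genes. In HOMO it was 0.29, 0.10, 0.33, 0.12, 1.84 and 2.33 in the same order, against 0.20. *Tnc* and *Sparc* were thus among the steadier genes in HOMO, at the 22.3 and 26.1 percentile, whereas *Spp1* and *Postn* were at the 99.6 and 99.9 percentile.

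Profiles over the 8 libraries were compared as the root mean square difference of log2 CPM after centring each gene on its mean, a description over libraries that are not all separate. Among the 6 genes the smallest difference was that of *Tnc* and *Tnxb*, 0.32, and the next was *Tnc* and *Sparc*, 0.67. Of 12968 other genes with a mean of at least 1 CPM, those near to *Tnc* included *Jup* (0.12) and *Cttnbp2nl* (0.13). The nearest to *Tnxb* were *Nkain4* (0.20), *Mettl7a1* (0.26) and *Zc2hc1a* (0.27), and those to *Fn1* were *Gm36283* (0.16), *8030462N17Rik* (0.16) and *Crybg3* (0.18). *Sparc* was nearest to *E2f6* (0.07), *Calhm2* (0.09) and *Fjx1* (0.14). *Spp1* was nearest to *Tyrobp* (0.28), *Arl11* (0.32) and *Laptm5* (0.34), of which *Tyrobp* and *Laptm5* are genes of blood-derived cells. The genes nearest to *Postn* were *Acta1* (0.79), the skeletal muscle actin, *Angptl7* (1.12) and *Naalad2* (1.19). These differences are not divided by a gene's own spread, and the SD over the 8 libraries was 2.69 for *Postn* against 0.60 for *Fn1*.

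The protein families and binding partners of these 6 genes were listed as 52 further genes, of which 40 were tested. A negative log2 fold change was found for 32 of them, where the median over all tested genes was −0.04. Of the 40, 7 were called, each as lower in HOMO, where 12.1% of all tested genes were called and 6.18% called as lower. In the SPARC family, with *Sparc* included, 6 of 8 genes were tested and none was called by edgeR, with a median log2 fold change of −0.84. Its most abundant other member, *Fstl1*, a secreted follistatin-like glycoprotein, had means of 605 CPM in WT and 395 CPM in HOMO (log2 fold change −0.62, SE 0.29, adjusted p = 0.172). *Smoc1*, named after its values were seen, had 7522, 10645, 100 and 25784 counts in WT and 827 to 1792 in HOMO, so that WT3 lay below all HOMO libraries and the other WT libraries above them (log2 fold change −3.21, SE 1.04, adjusted p = 0.0735). All 4 genes of the FAS1 domain family, with *Postn* included, were tested and none was called by edgeR. In this family *Stab1*, a scavenger receptor, was lower in every HOMO library, at means of 2.20 against 16.1 CPM (log2 fold change −2.88, SE 0.83, adjusted p = 0.0526). *Stab1* was called by DESeq2 (adjusted p = 0.00109), by limma-voom (log2 fold change −1.87, adjusted p = 0.0200) and by edgeR without a count filter (adjusted p = 0.0461). *Spp1* was the only one of the 5 SIBLING phosphoproteins above the floor, as *Ibsp* and *Mepe* had 0 counts in all libraries and *Dmp1* and *Dspp* at most 3.

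Of 15 receptors for fibronectin, tenascin-C, periostin or osteopontin, 14 were tested, and 2 were called as lower and none as higher. Over all tested genes 6.18% were called as lower. The median log2 fold change of the receptors was −0.54. The heparan sulfate proteoglycan *Sdc3* fell from a mean of 133 to 32.5 CPM (log2 fold change −2.04, SE 0.45, adjusted p = 0.0238). *Sdc2*, of the same syndecan family, fell from 274 to 152 CPM (log2 fold change −0.85, SE 0.23, adjusted p = 0.0452). The most abundant integrin subunit, *Itgb1*, had means of 2145 CPM in WT and 1448 CPM in HOMO without overlap but was not called (log2 fold change −0.57, adjusted p = 0.0778). *Itgb5*, which pairs with αv to bind osteopontin and periostin, had 564 against 316 CPM, also without overlap (log2 fold change −0.83, adjusted p = 0.0533). *Cd44*, the hyaluronan receptor that binds osteopontin, named after its values were seen, had 202 against 71.2 CPM with overlap (log2 fold change −1.50, adjusted p = 0.0609). The edgeR call for *Sdc3* was lost without HOMO1 or HOMO2 (adjusted p = 0.0731 and 0.0538). That for *Sdc2* was lost without any HOMO library (0.104 to 0.110), without WT2 (0.0624) or without WT4 (log2 fold change −0.595). It was also lost with no filter on low counts (0.0619). With the library number as a replicate block, both calls were lost (0.0571 for *Sdc3* and 0.111 for *Sdc2*). *Itgb5* was called without WT1 (0.0394) and by DESeq2 (0.0176).

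Of 10 matrix partners and assembly enzymes, all were tested and 2 were called, both as lower, against 6.18% of all tested genes. *Fbn1* (fibrillin-1) fell from 609 to 296 CPM (log2 fold change −1.04, SE 0.21, adjusted p = 0.0165), and *Tgm2* (transglutaminase 2, which crosslinks fibronectin) from 217 to 109 CPM (log2 fold change −0.99, SE 0.24, adjusted p = 0.0319). Leaving out HOMO1 or HOMO2 ended the call for *Fbn1* (adjusted p = 0.0677 and 0.0655), and leaving out any HOMO library that for *Tgm2* (0.0670 to 0.100). With the library number as a replicate block, edgeR called neither (adjusted p = 0.0550 for *Fbn1* and 0.0978 for *Tgm2*). The 2 most abundant partners were not called by edgeR and had opposite signs. *Col1a1*, which encodes the α1 chain of collagen I, was higher in every HOMO library, at 8669 against 4917 CPM (log2 fold change 0.82, SE 0.30, adjusted p = 0.0985), and *Fbln2* (fibulin-2) was lower in each, at 2162 against 5121 CPM (log2 fold change −1.24, SE 0.46, adjusted p = 0.103). Both were called by DESeq2 (adjusted p = 0.0373 and 0.0344) and by limma-voom (adjusted p = 0.00427 and 0.0350).

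Other matricellular proteins contributed the largest called differences. Of 11 thrombospondin and CCN genes 8 were tested and 3 were called, all lower in HOMO, where 6.18% of all tested genes were. Their median log2 fold change was −1.11 over the 8 tested. *Thbs1* (thrombospondin-1, an adhesive glycoprotein that can activate TGF-β) fell from 11934 to 1678 CPM (log2 fold change −2.83, SE 0.43, adjusted p = 0.00707), and *Thbs2* from 2370 to 903 CPM (log2 fold change −1.39, SE 0.23, adjusted p = 0.00855). *Wisp2*, also named CCN5, fell from 856 to 107 CPM (log2 fold change −3.00, SE 0.63, adjusted p = 0.0203), a call lost without HOMO1 or HOMO2 (adjusted p = 0.0567 and 0.0585). *Thbs1* and *Thbs2* stayed called with any 1 library left out, which leaves the other library of a close pair in place. With each close pair summed into 1 unit, edgeR called neither (adjusted p = 0.246 and 0.299).

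**Figure D4:**
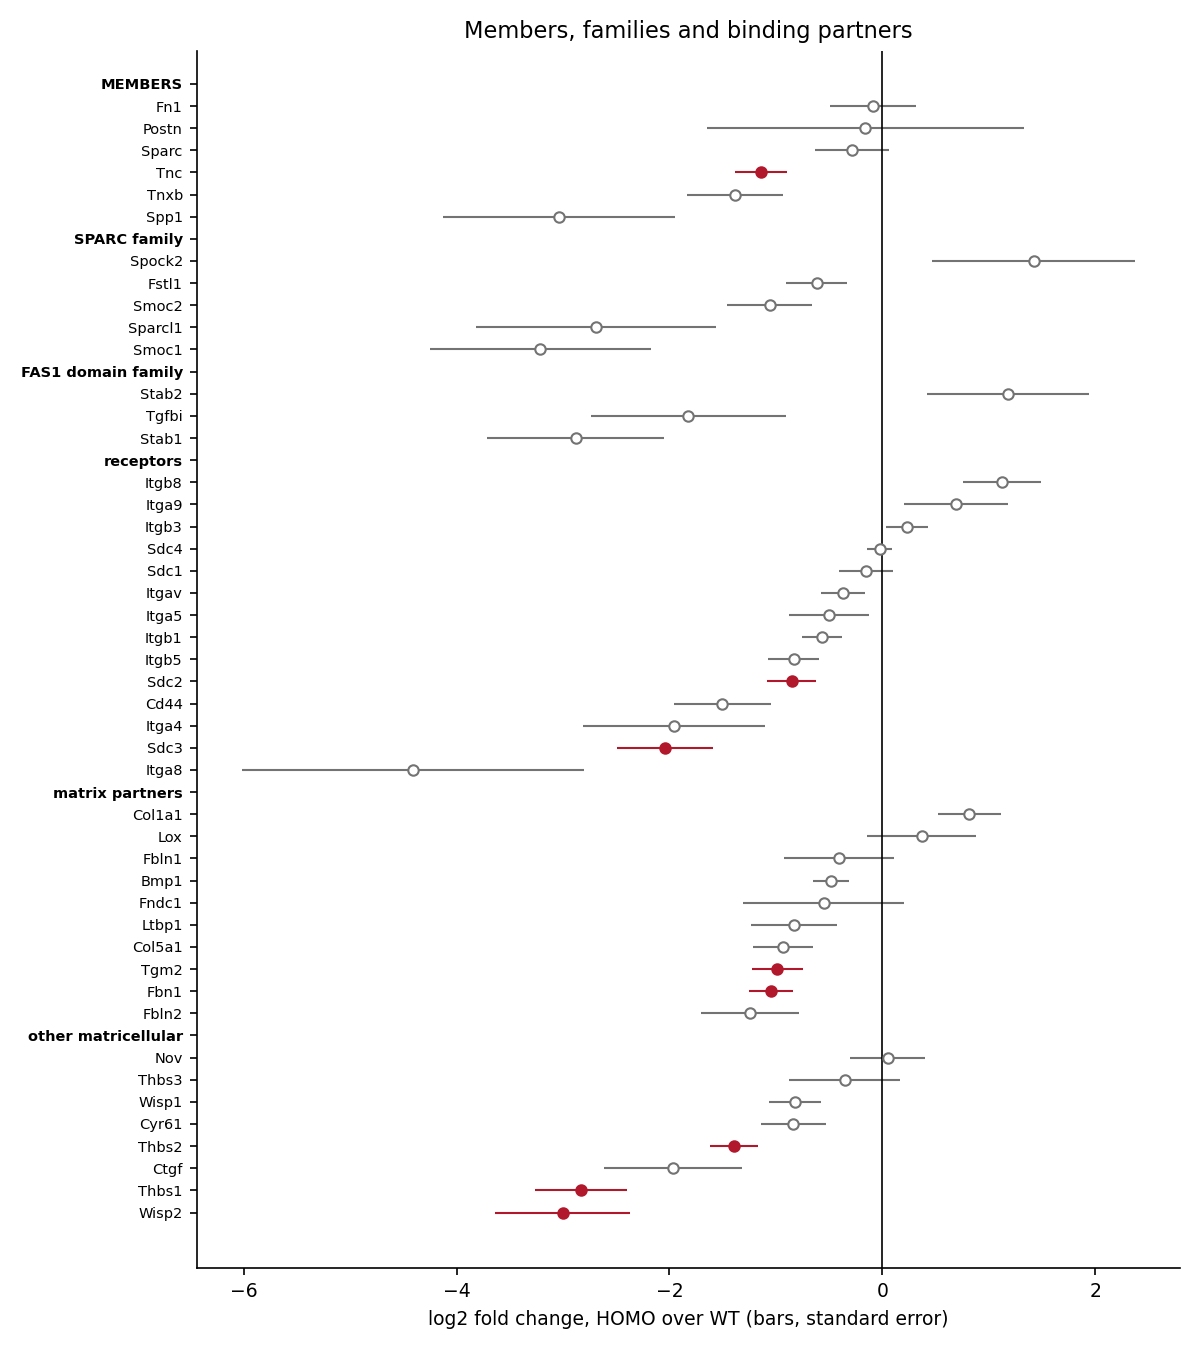
Log2 fold change (HOMO against WT) with its SE for the 6 genes and the 40 tested genes of their families, receptors and partners, where filled red points are DEGs. *Tnc* is the one filled point among the 6, and all 7 others lie below 0.

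Of the 6 genes, 4 share exon bases with another gene. The strand setting of the counting is not given in the sources used here, so reads from an antisense gene cannot be told apart from those of the gene itself. *Fn1* shares 292 exon bases, 2.50% of its exon, with *Apol7d* on the opposite strand, which had at most 15 counts, and *Tnc* shares 176 bases (2.27%) with *8030451A03Rik*, which had 7 to 35. *Spp1* shares 309 bases (18.8%) with *Gm42793* on the same strand, which had at most 11 counts, and *Tnxb* shares 3 bases with *Cyp21a2-ps*. How many reads of each gene fell in the shared bases was not measured.

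**Figure D5:**
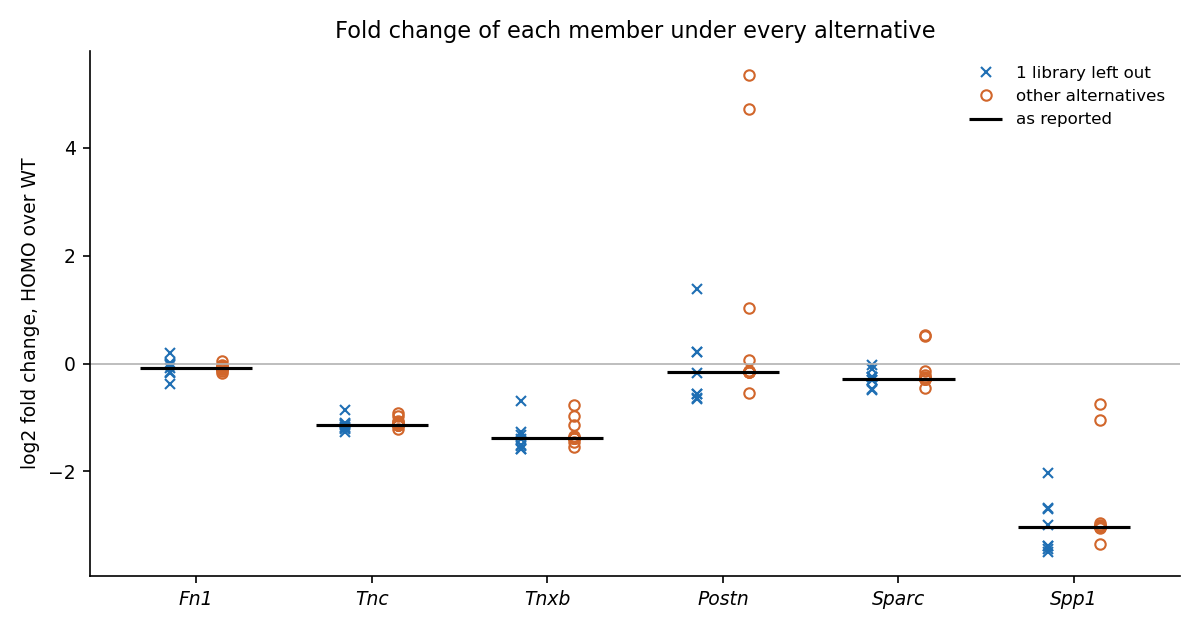
Log2 fold change (HOMO against WT) of the 6 genes as reported (line), with 1 library left out (crosses) and under the other alternatives (circles). *Tnc*, *Tnxb* and *Spp1* stay below 0 throughout, whereas *Postn*, *Sparc* and *Fn1* lie on both sides of 0.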

How the data were processed

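Gene counts of 8 RNA libraries, 4 WT and 4 HOMO, were analysed. After trimming (fastp), alignment to mm10 (STAR) and counting per gene (featureCounts), the authors deposited the raw counts in a table labelled "outlierout", and the sources used here do not say whether it once held more libraries. Counts were compared with edgeR 4.0.16 (R 4.3.3; TMM, filterByExpr by genotype, quasi-likelihood F test, Benjamini-Hochberg adjustment over 14150 genes). SE was derived as absolute log2 fold change over the root of F. log2 CPM carried a prior count of 2. Alternatives used DESeq2 1.42.0 and limma 3.58.1. Summaries and plots used Python 3.11.15 with pandas 2.3.3, numpy 2.4.6, matplotlib 3.10.9 and scipy 1.17.1. Positions and exon lengths came from GENCODE M21 (GRCm38). The test was checked on simulated counts of 8 independent libraries, where 72% of 4-fold changes were recovered with 3.47% false calls. That setting lacks the close pairs of libraries, so it does not show how the test performs with them.

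The genes and lists were chosen with earlier results of these data known. Named were the 6 genes, each list's DEGs (at most 4) and its 2 genes of highest mean CPM, and the 3 genes nearest each of the 6 in profile, of which 1 is not reported here. Genes outside the filter were compared by exact permutation over 70 assignments. Library numbers did not pair the genotypes.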

Additional observations from a re-analysis of the deposited data

Results flagged for a closer look

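*Sdc3* measured 6.55 log2 CPM in WT3, far below the 7.15 to 7.23 of WT1, WT2 and WT4. It was the 1 sample so far from its group among 38 groups examined. The limit used would mark about 1 in 20 groups by chance if their libraries were separate, which the close pairs are not. WT3 was the WT library nearest to HOMO for this gene.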

How the results depend on the processing

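*Tnc*, *Tnxb* and *Spp1* kept a negative log2 fold change under every alternative run, and no call among the 6 genes changed with RLE or upper-quartile scaling, no count filter, CPM above 1 in at least 4 libraries, or robust dispersion. DESeq2 called 2913 genes, 3 of the 6 and 18 list genes, with *Tnxb* at −1.39 and *Spp1* at −3.03. limma-voom called 3573, 3 and 18, with *Tnxb* at −0.97, and reversed *Postn* (4.72), which it called as higher in HOMO (adjusted p = 0.0398), and *Sparc* (0.51). Summing near-identical libraries (3 WT and 2 HOMO units) called 0 genes by edgeR, 0 of the 6 and 0 list genes, though 2057 of 16130 had an unadjusted p under 0.05, and *Tnc* was at −1.21. Leaving out WT3 and WT4, chosen after seeing the data, gave 5.35 for *Postn*, 0.53 for *Sparc* and −0.75 for *Spp1*. With single libraries left out, DEGs numbered 507 to 2192 (507 without HOMO1, 512 without HOMO2), calls among the 6 genes 0 to 2 and list calls 2 to 10. Log2 fold changes then ranged from −1.26 to −0.86 for *Tnc*, −1.59 to −0.69 for *Tnxb*, −3.49 to −2.03 for *Spp1*, −0.48 to −0.03 for *Sparc*, −0.65 to 1.38 for *Postn* (reversed without WT3, 1.38, HOMO1, 0.22, and HOMO2, 0.22) and −0.37 to 0.20 for *Fn1* (reversed without WT4, 0.20, and HOMO2, 0.01). The cause of these changes was not tested.

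Same-numbered libraries did not deviate together (correlations −0.0910, −0.0424, 0.0141 and −0.124), and no library correlated best with its own number. With the number as a replicate block there were 947 DEGs and 1 call among the 6 genes, *Spp1* (−3.00, adjusted p = 0.0125), while *Tnc* (−1.08, adjusted p = 0.0573) was lost and *Fn1* (0.042) and *Postn* (1.03) turned positive. The lowest count among the 6 genes was 18, of *Postn* in WT1.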
